A study of Arabidopsis thaliana with 9 samples.

Results

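The 10 genes described here are marker genes of the cold and dehydration response of Arabidopsis thaliana, and were taken by locus identifier from the 33557 loci of the deposited tables. They are RD29A (AT5G52310), RD29B (AT5G52300), RD20 (AT2G33380), RAB18 (AT5G66400), COR15A (AT2G42540), COR15B (AT2G42530), KIN1 (AT5G15960), KIN2 (AT5G15970), COR47 (AT1G20440) and ERD10 (AT1G20450). All 10 had a row in both tables. Levels are FPKM from polyA RNA of seedlings of the Col-0 ecotype, raised for 14 days on solid medium, with 3 libraries in each of 3 groups. The doxycycline group was wild type given liquid MS medium, diluted as for the plates, with the antibiotic at 25 µg/ml for 12 h in the light. Doxycycline blocks translation on the bacterial type of ribosome found in mitochondria and plastids. The mrpl1-1 group carried a mutation in a gene for a mitochondrial ribosomal protein and received the same medium without the drug. The wild-type group received that medium without the drug as well, so all seedlings had liquid added to their plates. The series' title names impaired mitochondrial translation as its subject, and the labels give neither the nature of the mrpl1-1 allele nor the number of seedlings in a library.

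Most of these genes encode hydrophilic proteins that protect cells losing water to frost or drought. In the cold, CBF (DREB1) transcription factors bind the DRE element, with the core CCGAC, in front of many of them. During drought the hormone abscisic acid acts through receptors, PP2C phosphatases and SnRK2 kinases on ABF transcription factors, which bind the ABRE element with the core ACGTG, while DREB2 factors act on the DRE. In unstressed seedlings such genes are usually held low, and their transcripts are therefore used as reporters of cold, water loss and abscisic acid.

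Of the 10 genes, 8 lay as neighbouring pairs in the RefSeq annotation of TAIR10.1. RD29B and RD29A lay on the plus strand of chromosome 5 (21237021 to 21239531 and 21240717 to 21243644), 1185 bases apart. KIN1 and KIN2 followed each other on the plus strand of chromosome 5 (5209717 to 5210826 and 5211719 to 5212743), 892 bases apart. COR15B and COR15A lay on the minus strand of chromosome 2 (17708593 to 17710433 and 17710441 to 17712330), with 7 bases between their annotated ends. COR47 and ERD10 lay on the minus strand of chromosome 1 (7084409 to 7086873 and 7087903 to 7089606), 1029 bases apart. RD20 was on the minus strand of chromosome 2 (14144831 to 14146555) and RAB18 on the minus strand of chromosome 5 (26518277 to 26519447). The coding sequences of KIN1 and KIN2 were 95% identical and their proteins of 66 residues shared 61 residues. COR15A and COR15B were 82.8% identical in coding sequence and 75.9% in protein. Identity of the coding sequences was 74.1% for COR47 and ERD10 and 61.1% for RD29A and RD29B. The division of reads between KIN1 and KIN2 in the authors' quantification is therefore uncertain, and the same holds to a lesser degree for the COR15 pair.

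The 250 bases before the annotated start are shown for RD29A, RD29B and COR15A, the members whose window held the DRE core, and for the near-identical KIN1 and KIN2. Letters in capitals are the DRE core CCGAC or the ABRE core ACGTG on either strand, so GTCGG and CACGT are the same motifs on the opposite strand, and CACGTG holds the ABRE core on both strands. The windows are chr5:21240467-21240716 (plus strand), chr5:21236771-21237020 (plus), chr2:17712331-17712580 (minus), chr5:5209467-5209716 (plus) and chr5:5211469-5211718 (plus) in TAIR10.1, each written 5′ to 3′ in the direction of the gene.
RD29A: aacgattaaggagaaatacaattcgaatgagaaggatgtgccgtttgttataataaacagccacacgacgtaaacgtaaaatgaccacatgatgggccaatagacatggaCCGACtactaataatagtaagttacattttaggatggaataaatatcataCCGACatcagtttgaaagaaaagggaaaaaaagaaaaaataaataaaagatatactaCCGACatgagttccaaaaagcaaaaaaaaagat
RD29B: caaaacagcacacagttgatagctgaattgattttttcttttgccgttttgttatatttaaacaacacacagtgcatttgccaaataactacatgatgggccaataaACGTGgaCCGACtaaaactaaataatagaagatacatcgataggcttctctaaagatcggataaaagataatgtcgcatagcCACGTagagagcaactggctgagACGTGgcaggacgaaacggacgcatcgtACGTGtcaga
COR15A: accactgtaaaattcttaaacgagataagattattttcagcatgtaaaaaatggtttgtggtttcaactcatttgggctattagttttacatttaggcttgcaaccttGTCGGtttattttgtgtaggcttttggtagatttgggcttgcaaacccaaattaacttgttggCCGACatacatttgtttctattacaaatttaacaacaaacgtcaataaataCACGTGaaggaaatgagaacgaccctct
KIN1: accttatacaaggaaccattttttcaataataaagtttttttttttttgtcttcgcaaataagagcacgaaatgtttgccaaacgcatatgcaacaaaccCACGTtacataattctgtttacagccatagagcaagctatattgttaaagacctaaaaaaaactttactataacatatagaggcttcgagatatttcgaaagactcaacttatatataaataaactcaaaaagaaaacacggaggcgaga
KIN2: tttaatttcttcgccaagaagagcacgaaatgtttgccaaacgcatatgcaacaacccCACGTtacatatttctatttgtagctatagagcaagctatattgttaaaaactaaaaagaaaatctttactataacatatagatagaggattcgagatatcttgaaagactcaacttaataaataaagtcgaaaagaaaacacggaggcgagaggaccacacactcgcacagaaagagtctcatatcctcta

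RD29A held 3 DRE cores and no ABRE core in its window, whereas RD29B, its neighbour, held 1 DRE core and 4 ABRE cores. COR15A held 2 DRE cores and 1 palindrome with the ABRE core on both strands. KIN1 and KIN2 each held 1 ABRE core and no DRE core. RD20 and RAB18 held 3 ABRE cores each, counting both strands, and COR15B, COR47 and ERD10 held neither motif in this window. In all, 3 of the 10 windows held the DRE core, against 12.0% of the windows of 27443 protein-coding genes, and 6 held the ABRE core, against 22.9%. Both elements are known from genes of this response, and KIN1 and KIN2 are near-identical, so these shares are no test of enrichment. Annotated starts can lie far from the start in use, and the window of COR15B falls inside COR15A, so a missing match says nothing about binding.

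Wild-type libraries set the base levels. FPKM is scaled by transcript length, so genes can be ranked within it, and all levels below are on the scale of the table with doxycycline, with the mutant columns divided by 0.94058. KIN2 and COR47 were highest in wild type at 222.6 ± 71.7 and 217 ± 24.8 FPKM (SD, n = 3), and their libraries overlapped. COR15B followed at 89.3 ± 39.5 and ERD10 at 60.5 ± 18.7 FPKM (SD, n = 3), again with overlapping libraries. COR15A at 26.0 ± 17.8 and RAB18 at 18.1 ± 1.22 FPKM overlapped, as did RD20 at 6.29 ± 1.55 and RD29A at 5.53 ± 2.17 FPKM (SD, n = 3). KIN1 stood at 1.63 ± 0.803 FPKM (SD, n = 3), and RD29B was listed at 0 in every wild-type library. Between those levels the libraries of neighbours in the order did not overlap. The most abundant and the least abundant genes thus included members of the same pair: KIN2 was between 40.9 and 384 times KIN1 over the 9 libraries, with a median of 111.7 times. By their mean over the 9 libraries, KIN2, COR47, COR15B and ERD10 stood at percentiles 97.9, 97.5, 93.7 and 90.4 of detected genes. These members were therefore not low in these seedlings.

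**Figure D1:**
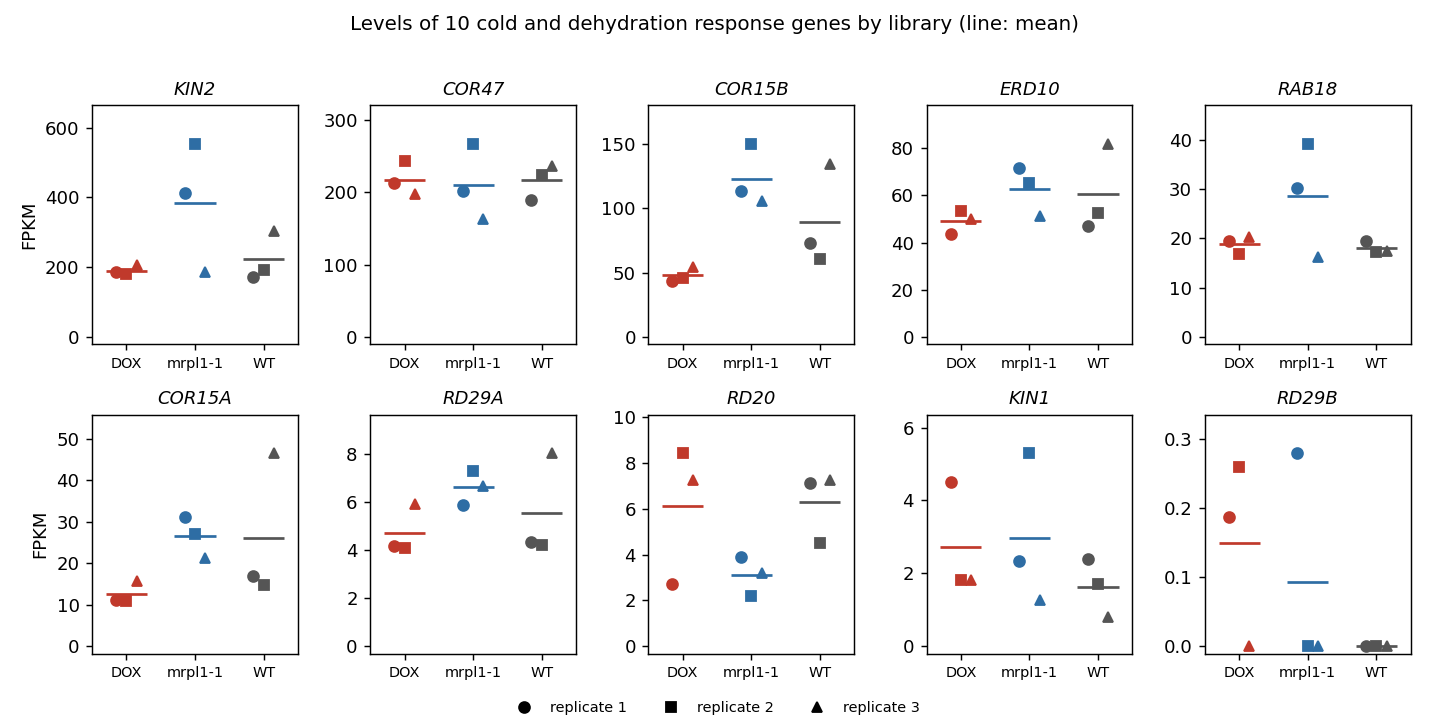
FPKM of each of the 10 genes (vertical axis, linear, own scale per gene) in the doxycycline (DOX), mrpl1-1 and wild-type (WT) libraries, with a symbol per replicate and a line at the mean of 3. COR15A and COR15B lay lower in all 3 doxycycline libraries than in all 3 mrpl1-1 libraries, and wild-type replicate 3 stood above the other wild-type libraries for COR15A, COR15B, KIN2, ERD10 and RD29A.

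Facts of the libraries bear on all comparisons. Depth, estimated from the steps between low FPKM values, was between 6.08 and 7.98 M reads in doxycycline, between 3.55 and 8.63 M in mrpl1-1 and between 3.41 and 8.98 M in wild type, with the lowest value in wild-type replicate 3. MRPL1 (AT2G42710, a locus known from background and not from the labels) measured 20.8, 12.8 and 19.8 FPKM in the mrpl1-1 libraries and 20.7, 19.1 and 26.7 FPKM in wild type, and the difference did not pass the test (log2 -0.31, limma, adjusted p = 0.931), so its level is no check of the mutant label. Leaf and root markers were present in every group, as the label of seedling tissue implies, and in each group 5 of 6 seed maturation genes were listed at 0 in all its libraries. Wild-type replicate 3 was more than 1.5-fold above the mean of the other wild-type libraries for 5 of 9 measurable members, and mrpl1-1 replicate 2 for 3 of 9 above its own group. By another measure, 3 of 9 members had their highest value of all libraries in wild-type replicate 3 and 5 of 9 in mrpl1-1 replicate 2. Among 19105 genes these shares were 19.9% and 24.0%, so these 2 libraries stood apart for many genes and not for the members alone. In seedling RNA, fewer cells that express a gene and less RNA per cell cannot be told apart.

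Doxycycline-treated seedlings were set against untreated wild type to ask whether the drug moved the reporters of cold and water stress. None of the 9 members with a mean of at least 1 FPKM passed the test (limma, Benjamini-Hochberg adjusted p under 0.05), where 35 of 19073 genes, or 0.184%, did. At an unadjusted p under 0.05 1 member was lower and none higher, against 8.49% of all genes in either direction. The members' median log2 fold change was -0.16, with 6 below 0 and 3 above, and the median of all genes was 0.0025. Without wild-type replicate 3 the members' median was 0.035, and with other libraries left out it reached -0.30, so its direction rested on that library. COR15B was the member whose replicates did not overlap, on the lower side, where 7.48% of all genes were lower and 8.51% higher without overlap.

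COR15B, a LEA-type protein of the chloroplast stroma that stabilises membranes during freezing, measured 43.1, 45.8 and 54.2 FPKM with doxycycline and 73.0, 60.5 and 134 FPKM in wild type. All 3 treated libraries lay below the lowest wild-type library. The log2 fold change of -0.81 (SE 0.28, 95% interval -1.46 to -0.16) did not pass over all genes (limma, adjusted p = 0.507). COR15A, its close copy, measured 11.1, 10.9 and 15.7 FPKM with doxycycline and 16.9, 14.7 and 46.5 FPKM in wild type. The groups overlapped, since the third treated library lay between the lower wild-type libraries, and the log2 fold change was -0.82 (SE 0.40; limma, adjusted p = 0.637). Wild-type replicate 3 held 2.95 times the COR15A and 2.01 times the COR15B of the mean of the other wild-type libraries. Without it the log2 fold changes were -0.32 for COR15A and -0.48 for COR15B (limma, adjusted p = 0.535 and 0.260).

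The other members differed less between doxycycline and wild type. RD29A, a widely used reporter gene of drought and cold, measured 4.15, 4.09 and 5.91 FPKM with doxycycline and 4.34, 4.20 and 8.03 FPKM in wild type. KIN2, which encodes a small cold-induced protein, had 185, 180.1 and 205 FPKM with doxycycline and 172, 190.9 and 305 FPKM in wild type. For both genes the treated libraries lay within or next to the range of wild type, and without wild-type replicate 3 the fold change turned to the higher side (log2 0.10 for RD29A and 0.07 for KIN2). The dehydrin ERD10, a chaperone-like protein of acidic type, measured 43.5, 53.4 and 50.1 FPKM with doxycycline and 47.2, 52.5 and 81.9 FPKM in wild type (log2 -0.26, SE 0.21; limma, adjusted p = 0.748).

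The dehydrins COR47 and RAB18 had the narrowest intervals around 0 in this comparison. COR47 measured 212, 243 and 198 FPKM with doxycycline and 188.9, 225 and 236 FPKM in wild type, and the log2 fold change of 0.0086 had a 95% interval from -0.30 to 0.32. RAB18, a dehydrin that responds to abscisic acid, measured 19.5, 16.8 and 20.25 FPKM with doxycycline and 19.5, 17.3 and 17.5 FPKM in wild type, and its log2 fold change of 0.06 had an interval from -0.22 to 0.33. A change of 2-fold in either direction lay outside both intervals.

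RD20, a calcium-binding caleosin of lipid droplets induced by abscisic acid, measured 2.71, 8.42 and 7.27 FPKM with doxycycline and 7.12, 4.50 and 7.26 FPKM in wild type. Treated libraries lay on both sides of the wild-type range (log2 -0.12, SE 0.36; limma, adjusted p = 0.941). KIN1 measured 4.52, 1.80 and 1.82 FPKM with doxycycline and 2.39, 1.71 and 0.793 FPKM in wild type, a log2 difference of 0.47 (SE 0.36; limma, adjusted p = 0.742). At the estimated depths KIN1 rested on between 2 and 24 reads per library, so its values carry a large counting error. RD29B was listed at 0.188, 0.260 and 0 FPKM with doxycycline and at 0 in all wild-type libraries, corresponding to about 3, 4 and 0 reads against none, and was too low to be tested.

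The mrpl1-1 seedlings were set against wild type to ask the same of a genetic lesion. No member of the 9 tested passed over all genes (limma), where 7 of 18994 genes, or 0.0369%, did. At an unadjusted p under 0.05 1 member was lower and none higher, against 4.46% of all genes in either direction. The members' median log2 fold change was 0.26, with 7 above 0 and 2 below, and the median of all genes was -0.00081. RD20 was the member without overlap, on the lower side, where 5.04% of all genes were lower and 5.09% higher without overlap. This comparison shares its wild-type libraries with the one above, so the values of the 2 comparisons are not independent.

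RD20 measured 3.91, 2.18 and 3.20 FPKM in mrpl1-1 and 7.12, 4.50 and 7.26 FPKM in wild type. All mutant libraries lay below the lowest wild-type library, and the means differed 0.492-fold. The log2 fold change was -0.82 (SE 0.26, 95% interval -1.41 to -0.23; limma, adjusted p = 0.931). Between 10 and 58 reads per library stood behind this gene at the estimated depths.

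KIN2 and RAB18 were uneven among the mutant libraries. KIN2 measured 413, 553 and 185 FPKM in mrpl1-1 and 172, 190.9 and 305 FPKM in wild type, so mutant replicates 1 and 2 lay above all wild-type libraries and replicate 3 among them. The log2 fold change was 0.69 (SE 0.40; limma, adjusted p = 0.931). RAB18 followed the same order, with 30.2, 39.2 and 16.3 FPKM in mrpl1-1 and 19.5, 17.3 and 17.5 FPKM in wild type (log2 0.55, SE 0.29; limma, adjusted p = 0.931). Here again replicates 1 and 2 were above every wild-type library and replicate 3 was below all of them. Without mrpl1-1 replicate 3 the log2 fold changes were 1.15 for KIN2 and 0.89 for RAB18, and both still missed the threshold (limma, adjusted p = 0.458 and 0.406).

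COR15B measured 114, 150.05 and 106 FPKM in mrpl1-1 and 73.0, 60.5 and 134 FPKM in wild type. The mutant libraries lay above wild-type replicates 1 and 2 and on both sides of replicate 3, with a log2 fold change of 0.53 (SE 0.30; limma, adjusted p = 0.931). COR15A measured 31.2, 27.1 and 21.3 FPKM in mrpl1-1 and 16.9, 14.7 and 46.5 FPKM in wild type, all above wild-type replicates 1 and 2 and all below replicate 3 (log2 0.20, SE 0.39; limma, adjusted p = 0.958). Without wild-type replicate 3 the log2 fold changes were 0.86 for COR15B and 0.70 for COR15A, and neither passed. Leaving that library out thus gave larger differences here and smaller ones in the doxycycline comparison.

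RD29A measured 5.87, 7.29 and 6.67 FPKM in mrpl1-1 and 4.34, 4.20 and 8.03 FPKM in wild type, and the groups overlapped through wild-type replicate 3 (log2 0.26, SE 0.25). ERD10 measured 71.8, 65.4 and 51.1 FPKM in mrpl1-1 and 47.2, 52.5 and 81.9 FPKM in wild type (log2 0.08, SE 0.24). COR47 measured 202, 267 and 163 FPKM in mrpl1-1 and 188.9, 225 and 236 FPKM in wild type (log2 -0.06, SE 0.23). The mutant libraries lay inside the wild-type range for ERD10 and beyond it on both sides for COR47. KIN1 measured 2.33, 5.30 and 1.27 FPKM in mrpl1-1 and 2.39, 1.71 and 0.793 FPKM in wild type (log2 0.50, SE 0.41), and RD29B was listed at 0.280, 0 and 0 FPKM in mrpl1-1, about 2 reads in replicate 1.

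**Figure D2:**
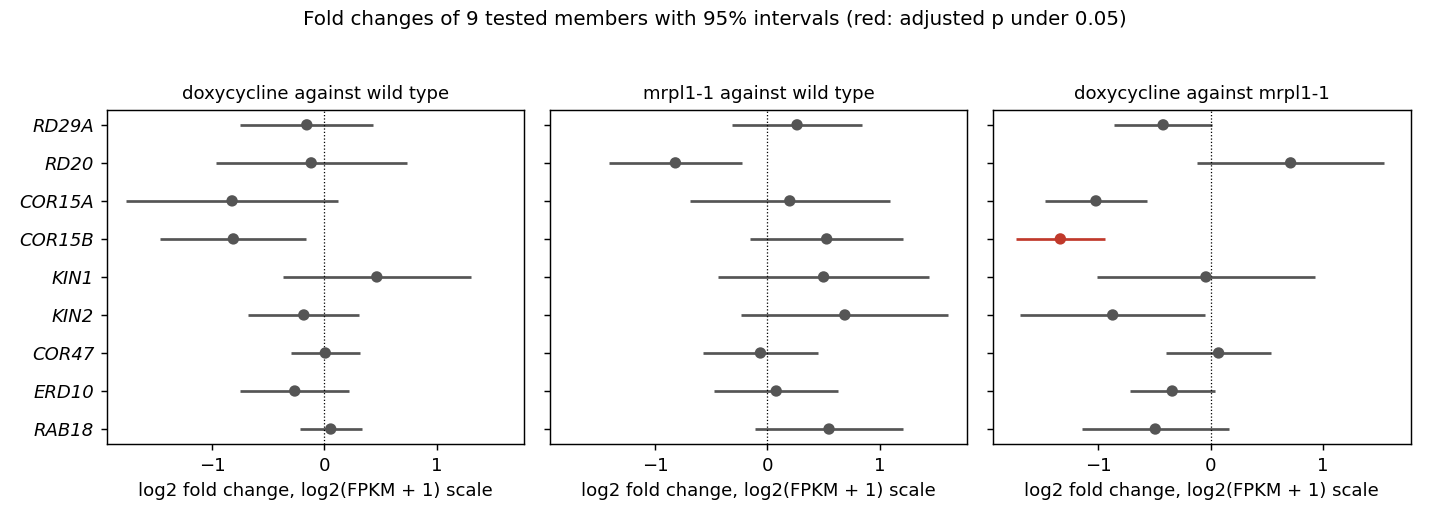
Log2 fold changes (horizontal axis, log2(FPKM + 1) scale) of the 9 tested members with 95% intervals, in a panel per comparison. COR15B in doxycycline against mrpl1-1, at -1.34, is the value that passed over all genes (red), while the intervals of RD20 in mrpl1-1 against wild type and of COR15B in doxycycline against wild type lay below 0 without passing.

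Doxycycline-treated wild type was then set against mrpl1-1, which asks whether the drug and the mutation left the reporters at the same level. Both bear on mitochondrial ribosomes, but the drug also acts on those of plastids and was given for 12 h. Genotype, duration and the action on plastids cannot be told apart in this comparison. COR15B was lower with the drug, at 47.7 ± 5.77 FPKM against 123 ± 23.6 FPKM in mrpl1-1 (SD, n = 3), a ratio of means of 0.387. It was 1 of 9 tested members to pass, where 76 of 19056 genes, or 0.399%, did. The highest doxycycline library, at 54.2 FPKM, lay below the lowest mrpl1-1 library, at 106 FPKM. The log2 fold change was -1.34 (SE 0.17, 95% interval -1.74 to -0.94; limma, adjusted p = 0.0290). The call depended on the libraries used. It was kept without mrpl1-1 replicate 2 or 3 and lost without doxycycline replicate 1, 2 or 3 or mrpl1-1 replicate 1 (limma, adjusted p = 0.133, 0.117, 0.0956 and 0.0919), and the log2 fold change stayed between -1.44 and -1.19. The call was also lost in a fit of all 9 libraries, without a filter on low values and without the variance trend (limma, adjusted p = 0.0678, 0.0632 and 0.0593).

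COR15A, whose groups also lay apart, did not pass. It measured 12.6 ± 2.70 FPKM with doxycycline and 26.5 ± 4.98 FPKM in mrpl1-1 (SD, n = 3), a ratio of means of 0.474. The log2 fold change was -1.02 (SE 0.20, 95% interval -1.48 to -0.57; limma, adjusted p = 0.0871). Without mrpl1-1 replicate 3 it passed, at -1.17 (limma, adjusted p = 0.0473), but 237 genes passed in that setting, against 76 with every library. The ratio of COR15B to COR15A stayed between 2.88 and 5.54 over the 9 libraries, with a median of 4.13. It was 3.87, 4.21 and 3.45 with doxycycline, 3.64, 5.54 and 4.96 in mrpl1-1 and 4.33, 4.13 and 2.88 in wild type, so the ranges of the groups overlapped while the levels differed.

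Of the other members, KIN2 was at 190.0 ± 13.3 FPKM with doxycycline and 384 ± 186 FPKM in mrpl1-1 (SD, n = 3). Its log2 fold change of -0.87 (SE 0.36; limma, adjusted p = 0.422) met mutant replicate 3 at the level of the treated libraries, and without that library it was -1.33 and passed (limma, adjusted p = 0.0240). COR15B, COR15A and KIN2 were the members called in that setting, among 237 genes in all, against 76 with every library. The added call was thus not particular to KIN2. RD29A had a log2 fold change of -0.42 (SE 0.19), ERD10 of -0.34 (SE 0.16) and RAB18 of -0.49 (SE 0.28), and none passed (limma, adjusted p = 0.463, 0.490 and 0.553). RD20 lay on the other side at 0.71 (SE 0.36; limma, adjusted p = 0.509), with 2 of 3 doxycycline libraries above every mutant library. COR47 was at 0.07 (95% interval -0.40 to 0.54) and KIN1 at -0.04 (95% interval -1.01 to 0.93).

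Over the 9 tested members the median log2 fold change of doxycycline against mrpl1-1 was -0.42, with 7 below 0 and 2 above, and the median of all genes was 0.0070. At an unadjusted p under 0.05 (limma) 3 members were lower and none higher, against 11.1% of all genes in either direction. COR15A and COR15B were the 2 without overlap, both lower, where 9.27% of all genes were lower and 9.71% higher without overlap. Doxycycline had the lowest mean of the 3 groups for 5 members (RD29A, COR15A, COR15B, KIN2 and ERD10), and mrpl1-1 had the highest mean for 7, all but RD20 and COR47. The share of all genes with these orders was not counted, so they cannot be read as particular to the members. The library mrpl1-1 replicate 2 alone had the highest value for 24.0% of 19105 genes. Since both comparisons with doxycycline use the same treated libraries, these orders are a description of the 9 libraries.

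Root markers and short genes moved in the same direction as COR15B with doxycycline against mrpl1-1, while of the green tissue markers 2 lay above 0 and 3 below. All 4 tested root markers lay lower with doxycycline than in mrpl1-1 with no overlap, where 9.27% of all genes did, and none passed (median log2 -0.98; smallest limma adjusted p = 0.0669). The summed level of the 5 root markers was 58.3 to 64.8 FPKM with doxycycline, 84.8 to 120.3 FPKM in mrpl1-1 and 75.5 to 81.6 FPKM in wild type. The 5 green tissue markers summed to between 19980 and 21480 FPKM with doxycycline, 19360 and 40060 FPKM in mrpl1-1 and 21340 and 21590 FPKM in wild type, and no marker was at 0 in a whole group. Their part in the COR15B result was not tested. Short genes also lay lower with the drug: genes with a coding length over 300 and up to 600 nt, such as COR15A and COR15B with 420 and 426 nt, had a median log2 fold change of -0.15 against mrpl1-1 and -0.10 against wild type. A setting chosen after seeing the data removed the trend of each library over coding length, and more genes passed there than the 76 of the main fit. In it COR15B stood at -1.17 and kept its call (limma, adjusted p = 0.0147), and COR15A stood at -0.85 (adjusted p = 0.149). The part of gene length in the COR15B result was not tested. The transcript annotated over COR15B on the opposite strand, AT2G42520, measured 26.4, 25.1 and 24.4 FPKM with doxycycline and 26.3, 24.1 and 21.3 FPKM in mrpl1-1, which overlapped.

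**Figure D3:**
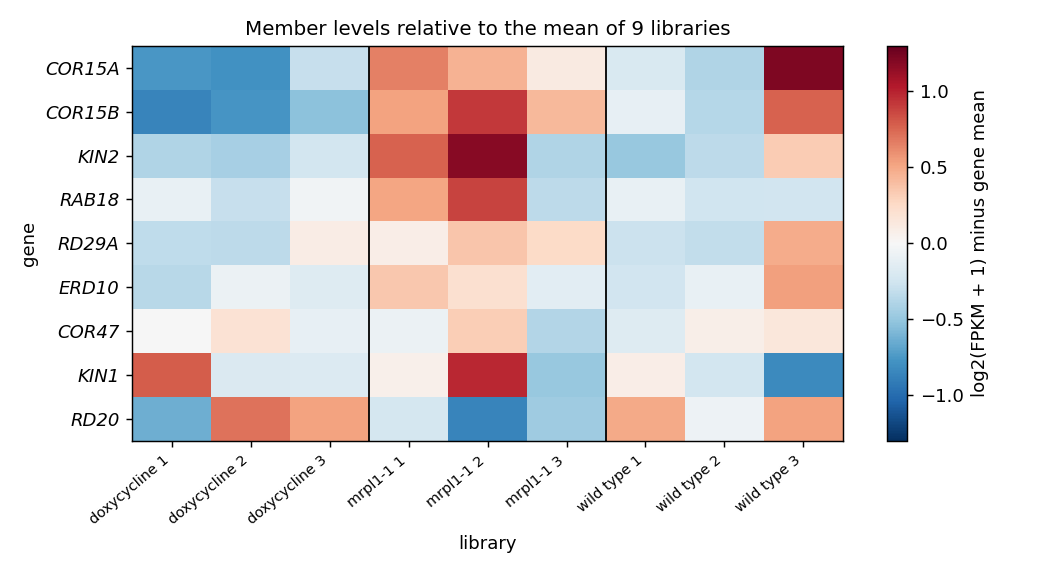
Level of each of the 9 measurable members in each library (columns, doxycycline, mrpl1-1 and wild type replicates 1 to 3) as log2(FPKM + 1) minus the gene's mean over the 9 libraries (colour). COR15A and COR15B are below their mean in all doxycycline libraries and in wild-type replicates 1 and 2. KIN2 and RAB18 are highest in mrpl1-1 replicates 1 and 2, and wild-type replicate 3 is high for COR15A, COR15B, RD29A and ERD10.

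The members did not move as a single block. By the root-mean-square difference between centred log2(FPKM + 1) values over the 9 libraries, the closest pairs were RD29A with ERD10 (0.22), COR15A with COR15B (0.26), COR47 with ERD10 (0.27) and RAB18 with KIN2 (0.30). Such a difference is small for genes that vary little, and the SD over the 9 libraries was 0.21 for COR47, 0.30 for ERD10 and 0.32 for RD29A, so their closeness is near their own deviation from flat. The SD was 0.42 for RAB18, 0.61 for KIN2 and 0.67 for both COR15A and COR15B. KIN1 and KIN2, with nearly the same coding sequence, were farther apart at 0.64. KIN1 rested on about 2 to 24 reads per library and the division of reads between the pair is uncertain, so this distance is uncertain too. Members above their own mean numbered 1, 2 and 2 of 9 in doxycycline replicates 1 to 3, 7, 8 and 3 in mrpl1-1 and 2, 1 and 7 in wild type. The counts in doxycycline were like those of wild-type replicates 1 and 2. The mutant and wild-type groups were split within themselves, 1 mutant library being low and 1 wild-type library high. The means used here include wild-type replicate 3 and mrpl1-1 replicate 2, which stood apart for many genes. RD20 was below its mean in all 3 mrpl1-1 libraries, against most members in replicates 1 and 2 and with most of them in replicate 3.

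COR15B varied most over the 9 libraries (SD 0.67 on the log2 scale). The genes with the most similar centred profile among 13913 genes of at least 5 FPKM were WRKY53 (AT4G23810; difference 0.17), AR781 (AT2G26530; 0.22), XTH20 (AT5G48070; 0.22), AT5G16200 (0.22) and AT4G32870 (0.23), where the median gene differed by 0.67 and COR15B from its own mean by 0.64. For the mean profile of the 9 members, itself only 0.27 from flat, the nearest were PRA1.E (AT1G08770; 0.07), AT1G09645, AT1G47640, AT5G06210 and AT1G69460 (0.08 to 0.09), against a median gene at 0.36. These likenesses describe 9 libraries of which 2 stood apart for many genes.

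Around the members, 101 other genes of the pathway were examined in 8 lists by role, and none passed over all genes in any of the 3 comparisons. Of the tested genes, 7 were higher and 3 lower of 82 with doxycycline against wild type at an unadjusted p under 0.05, 9 higher and none lower of 81 in mrpl1-1 against wild type, and 4 higher and 12 lower of 82 with doxycycline against mrpl1-1. These shares were 12.2%, 11.1% and 19.5% of the tested genes in either direction, against 8.49%, 4.46% and 11.1% of all genes in the same order of comparisons. The lists were chosen with earlier results of these data known, so the shares describe these lists and are no test of the pathway.

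The CBF factors, direct activators of the COR genes in the cold, were close to the limit of detection. CBF1 was listed at 0, 0.169 and 0 FPKM with doxycycline, 7.25, 0.495 and 0 FPKM in mrpl1-1 and 0.140, 0 and 0 FPKM in wild type. CBF2 did not exceed 0.364 FPKM in any library, and CBF3 measured 0.684, 0.888 and 0.447 FPKM with doxycycline, 0.764, 0.261 and 0 FPKM in mrpl1-1 and 1.47, 0.841 and 0 FPKM in wild type. The wild-type library with the highest COR15A, which was also the shallowest, thus had CBF1, CBF2 and CBF3 all listed at 0. CBF1 exceeded 1 FPKM in mrpl1-1 replicate 1 alone.

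Among 16 listed cold regulators, which include CBF genes, the ICE1 activator and zinc-finger repressors, the median log2 fold change was 0.06 with doxycycline against wild type (12 tested), -0.0048 in mrpl1-1 against wild type (13) and 0.25 with doxycycline against mrpl1-1 (13). ZAT12, a zinc-finger protein of the oxidative and cold response, measured 10.8 ± 0.658 FPKM with doxycycline and 5.13 ± 2.75 FPKM in wild type (SD, n = 3; limma, adjusted p = 0.485), and CZF1, a zinc-finger protein of the salt and cold response, had a log2 fold change of 0.27 (adjusted p = 0.618). In mrpl1-1 against wild type CZF1 had a log2 fold change of 0.91 (SE 0.26) and RAV1, an AP2/B3 transcription factor induced by cold, 0.82 (SE 0.27; limma, adjusted p = 0.931 for both). RAV1 measured 18.3 ± 2.15 FPKM with doxycycline and 38.8 ± 7.91 FPKM in mrpl1-1 (SD, n = 3), without overlap (limma, adjusted p = 0.0625). ZAT10, a zinc-finger repressor, measured 23.4 ± 5.59 FPKM with doxycycline and 84.9 ± 46.1 FPKM in mrpl1-1 (SD, n = 3; limma, adjusted p = 0.139).

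Of 15 other cold-induced genes, 14 were tested, and 13 of them lay below 0 with doxycycline against mrpl1-1, with a median of -0.36. At an unadjusted p under 0.05 (limma) 5 of the 14 were lower there, where 11.1% of all genes reached that p in either direction. COR27, a cold-regulated gene that is also linked to the circadian clock, measured 10.7 ± 1.45 FPKM with doxycycline and 19.2 ± 1.52 FPKM in mrpl1-1 (SD, n = 3; limma, adjusted p = 0.0871). Against wild type the same list had medians of -0.14 with doxycycline and 0.18 in mrpl1-1, where COR28 and COR27 had log2 fold changes of 0.47 and 0.42 (limma, adjusted p = 0.931 for both). LTP4 and LTP3, lipid transfer proteins, lay at -1.38 and -0.89 with doxycycline against wild type (limma, adjusted p = 0.486 and 0.564), at means under 4 FPKM, and LTP4 at -1.55 against mrpl1-1 (adjusted p = 0.210).

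Dehydrins other than the members had 4 tested genes of 7, with medians of -0.28 with doxycycline against wild type, -0.08 in mrpl1-1 against wild type and -0.18 with doxycycline against mrpl1-1. LTI30, a cold-induced dehydrin, ran against the COR15 genes, at 48.1 ± 6.96 FPKM with doxycycline, 28.3 ± 4.23 FPKM in mrpl1-1 and 31.7 ± 14.0 FPKM in wild type (SD, n = 3; limma, adjusted p = 0.121 against mrpl1-1 and 0.595 against wild type). ERD14, an abundant acidic dehydrin, lay at -0.55 with doxycycline and -0.34 in mrpl1-1 against wild type (limma, adjusted p = 0.629 and 0.931) and at -0.21 with doxycycline against mrpl1-1 (adjusted p = 0.667).

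In the DREB2 branch, which carries the drought signal without abscisic acid, DREB2A measured 5.59 ± 0.204 FPKM with doxycycline and 3.02 ± 0.269 FPKM in wild type (SD, n = 3; log2 0.71, SE 0.14; limma, adjusted p = 0.180), without overlap. Against mrpl1-1 it lay at 0.39 with doxycycline (adjusted p = 0.566). DREB2C lay at 0.57 against wild type and 1.12 against mrpl1-1 (limma, adjusted p = 0.561 and 0.253), at means under 3 FPKM. In mrpl1-1 against wild type DRIP2, a ubiquitin ligase for DREB2A, lay at -0.48 and DREB2A at 0.32 (adjusted p = 0.931 for both). The list's medians were 0.10 with doxycycline and -0.02 in mrpl1-1 against wild type, and 0.23 with doxycycline against mrpl1-1.

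Genes of abscisic acid signalling and metabolism were taken in 3 lists. For 15 tested receptors and phosphatases the medians were -0.09 with doxycycline and 0.11 in mrpl1-1 against wild type and -0.16 with doxycycline against mrpl1-1. The receptor PYL9 lay at 0.37 and PYR1 at -0.29 with doxycycline against wild type (limma, adjusted p = 0.464 and 0.510), and PYL6 and PYL5 at 0.31 and 0.38 in mrpl1-1 against wild type (adjusted p = 0.931 for both). With doxycycline against mrpl1-1 PYL9 lay at 0.36 and PYL5 at -0.47 (adjusted p = 0.410 and 0.264). For 12 tested kinases and transcription factors the medians were 0.04, -0.02 and 0.0089 in the same order. OST1, the SnRK2 kinase that abscisic acid activates in guard cells, measured 12.2, 10.6 and 10.7 FPKM with doxycycline and 9.22, 8.05 and 7.90 FPKM in wild type (limma, adjusted p = 0.487), and lay at 0.40 with doxycycline against mrpl1-1 (adjusted p = 0.418). ATHB7, a homeodomain factor induced by abscisic acid, lay at 0.36 with doxycycline and 0.38 in mrpl1-1 against wild type (limma, adjusted p = 0.530 and 0.931). ATHB12, a related factor, lay at 0.55 in mrpl1-1 against wild type and -0.55 with doxycycline against mrpl1-1 (adjusted p = 0.931 and 0.461).

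For 8 tested genes of abscisic acid synthesis and breakdown the medians were 0.09 with doxycycline and 0.04 in mrpl1-1 against wild type and 0.12 with doxycycline against mrpl1-1. CYP707A3, which inactivates the hormone, measured 1.01 ± 0.462 FPKM with doxycycline and 4.79 ± 3.03 FPKM in mrpl1-1 (SD, n = 3; limma, adjusted p = 0.201). The mrpl1-1 libraries of that gene were uneven, at 8.20, 2.41 and 3.77 FPKM. In mrpl1-1 against wild type it lay at 0.93, and BGLU18, which frees the hormone from its stored form, at -0.45 (adjusted p = 0.931 for both). CYP707A1 lay at 0.57 and ABA3, which makes the cofactor of the last step of synthesis, at 0.31 with doxycycline against wild type (adjusted p = 0.620 and 0.662). ABA1, the zeaxanthin epoxidase of the same route, lay at 0.33 with doxycycline against mrpl1-1 (adjusted p = 0.533). NCED3, the enzyme that limits synthesis under drought, measured 1.03, 1.01 and 1.35 FPKM with doxycycline, 5.12, 0.523 and 0.836 FPKM in mrpl1-1 and 1.08, 0.563 and 1.18 FPKM in wild type, and was singled out after its values were seen. The high value in mrpl1-1 replicate 1 came from the same library as that of CBF1. ZAT10, CYP707A3, ZAT12, RAV1 and CZF1, among others of the lists, also had the highest value of the 9 libraries there, as did 11.6% of 19105 genes. They were picked out here after their values were seen, and the estimated depth of that library was low, at 3.55 M reads.

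Other dehydration-induced genes had medians of -0.04 with doxycycline (12 tested) and 0.13 in mrpl1-1 (11) against wild type, and -0.20 with doxycycline against mrpl1-1 (11). PDH1, the mitochondrial proline dehydrogenase that breaks down proline after stress, lay at 0.43 with doxycycline against wild type (SE 0.18; limma, adjusted p = 0.584) and at 0.74 in mrpl1-1 against wild type (SE 0.17; adjusted p = 0.591), without overlap in either. ERD15, a regulator of abscisic acid responses, lay at 0.53 in mrpl1-1 against wild type and -0.49 with doxycycline against mrpl1-1 (limma, adjusted p = 0.931 and 0.377). GOLS2, a galactinol synthase for raffinose sugars, lay at -0.86 with doxycycline against mrpl1-1 (adjusted p = 0.333), and LEA7 at -0.47 with doxycycline against wild type (adjusted p = 0.728).

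**Figure D4:**
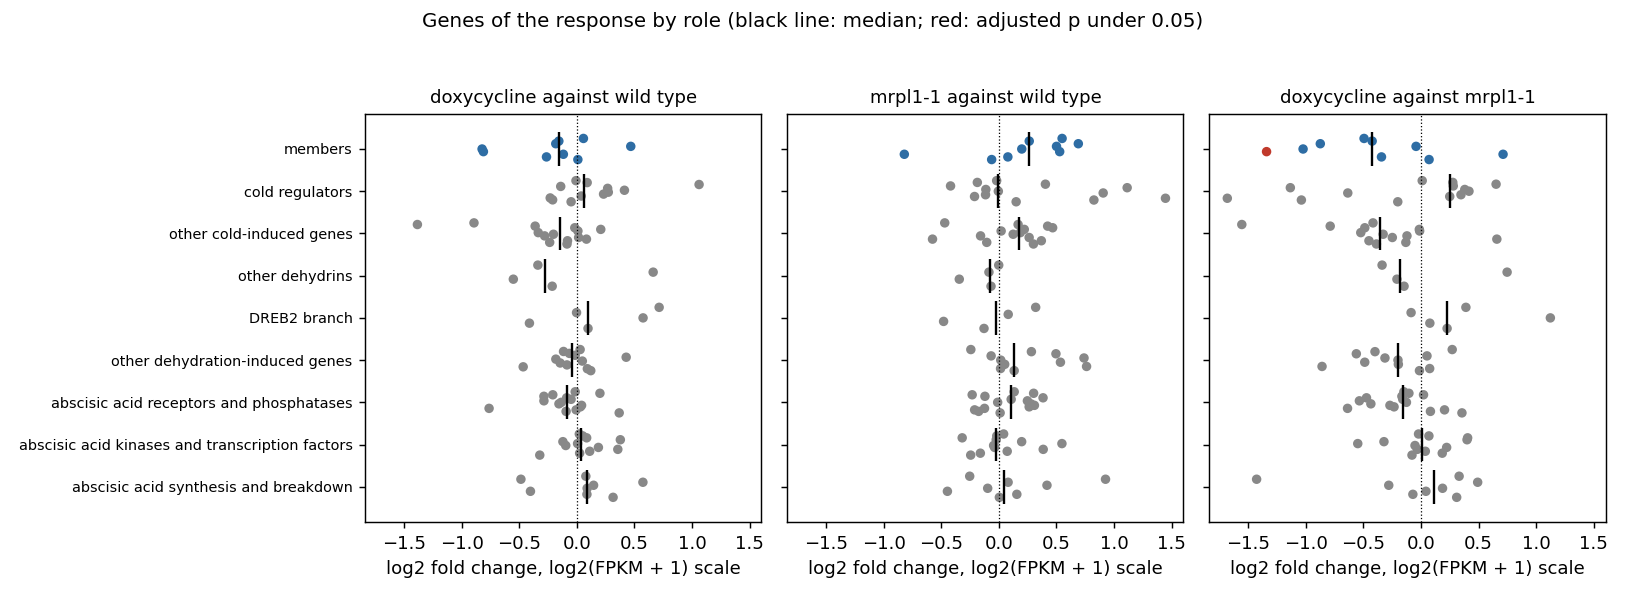
Log2 fold changes (horizontal axis, log2(FPKM + 1) scale) of the tested members (blue) and of 8 lists of pathway genes by role (grey), a point per gene with the list's median as a black line, in a panel per comparison. With doxycycline against mrpl1-1 the medians of the members (-0.42) and of the other cold-induced genes (-0.36) lie lowest, COR15B (red) passed the test, and no gene of the 8 lists passed in any panel.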

How the data were processed

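PolyA RNA of 9 libraries was sequenced by the submitters on an Ion Torrent Proton, with Cufflinks 2.2.1, FastQC 0.10.1 and the TAIR10 build listed as processing per the submitters' processing notes; the aligner and the use of strand are not given in the sources used here. The authors deposited FPKM values (fragments per kilobase of transcript, scaled to library size) for 33557 loci in 2 tables, with wild type in both. The wild-type values of the table with mrpl1-1 were a near-constant multiple (median 0.94058) of those in the other table, so levels and the comparison of doxycycline with mrpl1-1 use mutant columns divided by that factor, whereas mrpl1-1 was tested against wild type in the deposited mutant table. Depth was estimated from steps between low values and is approximate.

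Comparisons used limma 3.58.1 (R 4.3.3) with a variance trend on log2(FPKM + 1), for genes averaging 1 FPKM or more over the 6 libraries compared, with Benjamini-Hochberg adjustment over all of them and a threshold of 0.05. Fold changes of genes with low values are understated on this scale. The fit was tested on simulated data. The series' design text calls the replicates biological; how the seedlings of a group were divided between plates is not given, so p-values measure the spread between these samples. The members and lists were chosen with earlier results of these data known. Genes named from the lists are, in each comparison, the 2 with the smallest unadjusted p per list; CBF genes and NCED3 were named after their values were seen. Lists of seed, leaf and root genes served as markers of other tissues; of the 6 seed maturation genes none reached the filter. Positions and sequences were taken by locus from TAIR10.1 as annotated by RefSeq, since the tables hold no coordinates; its gene models may differ from the authors'. Identities came from global alignments in Biopython 1.88. COR15B overlaps AT2G42520 and RAB18 overlaps AT5G66410 on opposite strands, so their reads cannot be told apart if strand was not used. Alternatives covered the pseudocount, the filter, scaling, moderation, library weights, a block for the replicate number, a fit of all 9 libraries and each library left out.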

Additional observations from a re-analysis of the deposited data

How the results depend on the processing

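The call of COR15B in doxycycline against mrpl1-1 depended on the processing. The number of members called, 1, was 0 with no filter on low values, 0 in limma without trend and 0 with all 9 libraries in one fit, and between 0 and 3 with a library left out. No member was called in the other comparisons under any alternative run. The cause of the shifts below was not tested.

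Genes called in doxycycline against wild type (35) numbered 20 with no filter, 21 without trend, 126 with array weights, 7 with the replicate block and 9 to 91 with a library left out, 91 being without wild-type replicate 3. In mrpl1-1 against wild type (7) they numbered 4 with a pseudocount of 5, 4 with no filter, 2 with a mean of at least 5 FPKM, 18 with array weights and 5 to 11 with a library left out. In doxycycline against mrpl1-1 (76) they numbered 18 with no filter, 29 without trend, 160 with array weights and 13 to 237 with a library left out, 237 being without mrpl1-1 replicate 3. Chosen after seeing the data, a value above 0 in every library gave 2 calls in mrpl1-1 against wild type and 129 in doxycycline against mrpl1-1, and removal of the coding-length trend gave 4 and 135.

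The members' median log2 fold change of doxycycline against wild type was 0.003 with array weights and -0.30 to 0.035 with a library left out, and of doxycycline against mrpl1-1 -0.54 to -0.31 with a library left out. Directions turned for 7 members, none of them called there. In doxycycline against wild type, RD29A stood at 0.012 and KIN2 at 0.003 with array weights and at 0.10 and 0.066 without wild-type replicate 3, COR47 at -0.087 without wild-type replicate 1 and -0.074 without doxycycline replicate 2, and RD20 at 0.30 without doxycycline replicate 1. With a library left out the ranges there were -0.35 to 0.066 for KIN2, -0.087 to 0.076 for COR47 and -0.37 to 0.30 for RD20. In mrpl1-1 against wild type, COR15A stood at -0.005 and -0.099 and ERD10 at -0.077 and -0.002 without wild-type replicate 1 and 2, ERD10 at -0.025 without mrpl1-1 replicate 1, COR47 at 0.004 without wild-type replicate 3 and 0.11 without mrpl1-1 replicate 3, and KIN1 at -0.14 without wild-type replicate 3 and mrpl1-1 replicate 2 together. With a library left out the highest values there were 0.70 for COR15A, 0.31 for ERD10 and 0.83 for KIN1, and COR47 reached -0.25. In doxycycline against mrpl1-1, KIN1 stood at 0.17 with array weights, 0.12 without doxycycline replicate 2 or 3, 0.36 without mrpl1-1 replicate 2, 0.019 with mutant columns not rescaled and 0.19 with the coding-length trend removed, and COR47 at -0.011 without doxycycline replicate 2 and -0.099 without mrpl1-1 replicate 3. With a library left out KIN1 ranged from -0.38 to 0.36 and COR47 from -0.099 to 0.26.

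Correlations of deviations between libraries of the same replicate number lay between -0.0759 and 0.0803. Those between libraries of unlike number lay between -0.098 and 0.113. Such values cannot decide whether samples of the same number shared material or a batch, since noise in 3 libraries per group can hide it. The replicate block gave 7, 6 and 80 genes called in doxycycline against wild type, mrpl1-1 against wild type and doxycycline against mrpl1-1, and COR15B at -1.34 there (limma, adjusted p = 0.0424). Depth limits KIN1, RD20 and RD29B most, and 3 libraries per group limit all comparisons.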
